A study of Homo sapiens with 4 samples.

Results

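In SW-13 cells, 3 CUT&RUN peaks in a row rarely had each midpoint within 5 kb of the next. Where they did, no such cluster of the wild-type BRG1 list overlapped one of the mutant list. Over all peaks, 20.5% of the wild-type and 19.6% of the mutant list overlapped the other. That share of peaks is not a like measure, since overlapping clusters need 3 linked peaks in both lists at 1 place. Other ways of linking peaks gave a few overlapping clusters, as described below. A cluster was defined by the positions of the peaks alone. In each list, peaks on 1 chromosome were ordered by midpoint, neighbours whose midpoints were at most 5 kb apart were chained, and chains of at least 3 peaks were kept. This gave 30 clusters with 90 peaks among the 24212 iBRG1 peaks (0.372%) and 20 clusters with 60 peaks among the 25371 i∆HSA peaks (0.236%), or 150 peaks of 49583 in all.

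SW-13 is an adrenocortical carcinoma line with neither BRG1 nor BRM, and every sample shared that background. Stable lines made by transposon integration and G418 selection carried V5-tagged BRG1 under doxycycline control, either wild type (iBRG1) or with the helicase/SANT-associated (HSA) domain deleted (i∆HSA). Of each construct there were 2 biological replicates of 300000 cells, induced with doxycycline for 24 h and probed with an antibody against V5. The data were 1 peak list per construct with no replicate column and no read counts, so no value below has a replicate error and the depth is unknown. Uninduced cells were not analysed here.

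BRG1, encoded by SMARCA4, is an ATPase of the SWI/SNF complexes, which slide and evict nucleosomes at promoters and enhancers. Its HSA domain, a helical stretch ahead of the ATPase, is a docking site for actin and actin-related proteins. SWI/SNF is known to be brought to enhancers by sequence-specific factors, among them the AP-1 family of FOS and JUN dimers, and active enhancers often lie several to a locus.

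The reference sequence at a few cluster peaks is given here because the AP-1 pattern tgactca was found in cluster peaks of both lists. Shown are shared cluster peaks with a match in VWF, HS3ST5 and FBXL13, both matches of the clusters with more than 1 such peak, and the match in LAMB1. All of these peaks lay in gene bodies. Cluster peaks with a match at promoters or in distal intergenic sequence are not shown, nor are several in introns. Of the 4 i∆HSA cluster peaks with a match, only that in FBXL13 is shown. Each is 101 bases of the plus strand of GRCh37, centred on the match nearest to the peak's midpoint, and the set was chosen after the values were seen. Capitals mark the AP-1 match on either strand. None of the stretches touched an annotated exon.
VWF left peak, iBRG1, chr12:6194064-6194164: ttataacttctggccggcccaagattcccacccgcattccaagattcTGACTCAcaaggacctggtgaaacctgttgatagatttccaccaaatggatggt
VWF right peak, iBRG1, shared, chr12:6202683-6202783: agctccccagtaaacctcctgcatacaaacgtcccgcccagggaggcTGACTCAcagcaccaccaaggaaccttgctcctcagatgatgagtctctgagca
LAMB1 right peak, iBRG1, chr7:107614456-107614556: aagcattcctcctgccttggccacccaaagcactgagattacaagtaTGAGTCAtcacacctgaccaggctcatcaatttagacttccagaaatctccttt
RNF217-AS1 left peak, iBRG1, chr6:125275929-125276029: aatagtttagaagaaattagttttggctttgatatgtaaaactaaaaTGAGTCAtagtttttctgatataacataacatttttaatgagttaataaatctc
RNF217-AS1 middle peak, iBRG1, chr6:125279311-125279411: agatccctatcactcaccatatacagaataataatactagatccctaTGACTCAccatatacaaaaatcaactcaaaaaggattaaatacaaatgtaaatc
HS3ST5 middle peak, iBRG1, shared, chr6:114660973-114661073: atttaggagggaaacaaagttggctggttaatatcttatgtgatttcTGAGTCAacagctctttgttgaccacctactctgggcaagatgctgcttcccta
FBXL13 left peak, i∆HSA, shared, chr7:102516451-102516551: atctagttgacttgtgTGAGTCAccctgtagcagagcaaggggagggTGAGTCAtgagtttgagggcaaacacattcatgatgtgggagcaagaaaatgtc
The FBXL13 stretch was the only one of the 7 with 2 matches. GC content ranged from 21.8% at the left RNF217-AS1 peak to 56.4% at the right VWF peak. The LAMB1 stretch reads like part of an Alu element, the commonest interspersed repeat of primates. No repeat annotation was used, and how many cluster peaks lie in repeats was not tested.

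The name dense fitted these clusters only in part. Every cluster held exactly 3 peaks, and no chain in either list was longer. Spans from the start of the first peak to the end of the last ran from 4343 to 10742 bp in the iBRG1 list (median 7762) and from 5425 to 12717 bp in the i∆HSA list (median 7629), all well inside 20 kb. The peaks covered a median of 41.4% of the span in iBRG1 clusters and 34.2% in i∆HSA clusters. Chains of 2, called pairs below, were more frequent, with 591 in the iBRG1 list (4.88% of its peaks) and 662 in the i∆HSA list (5.22%).

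**Figure D1:**
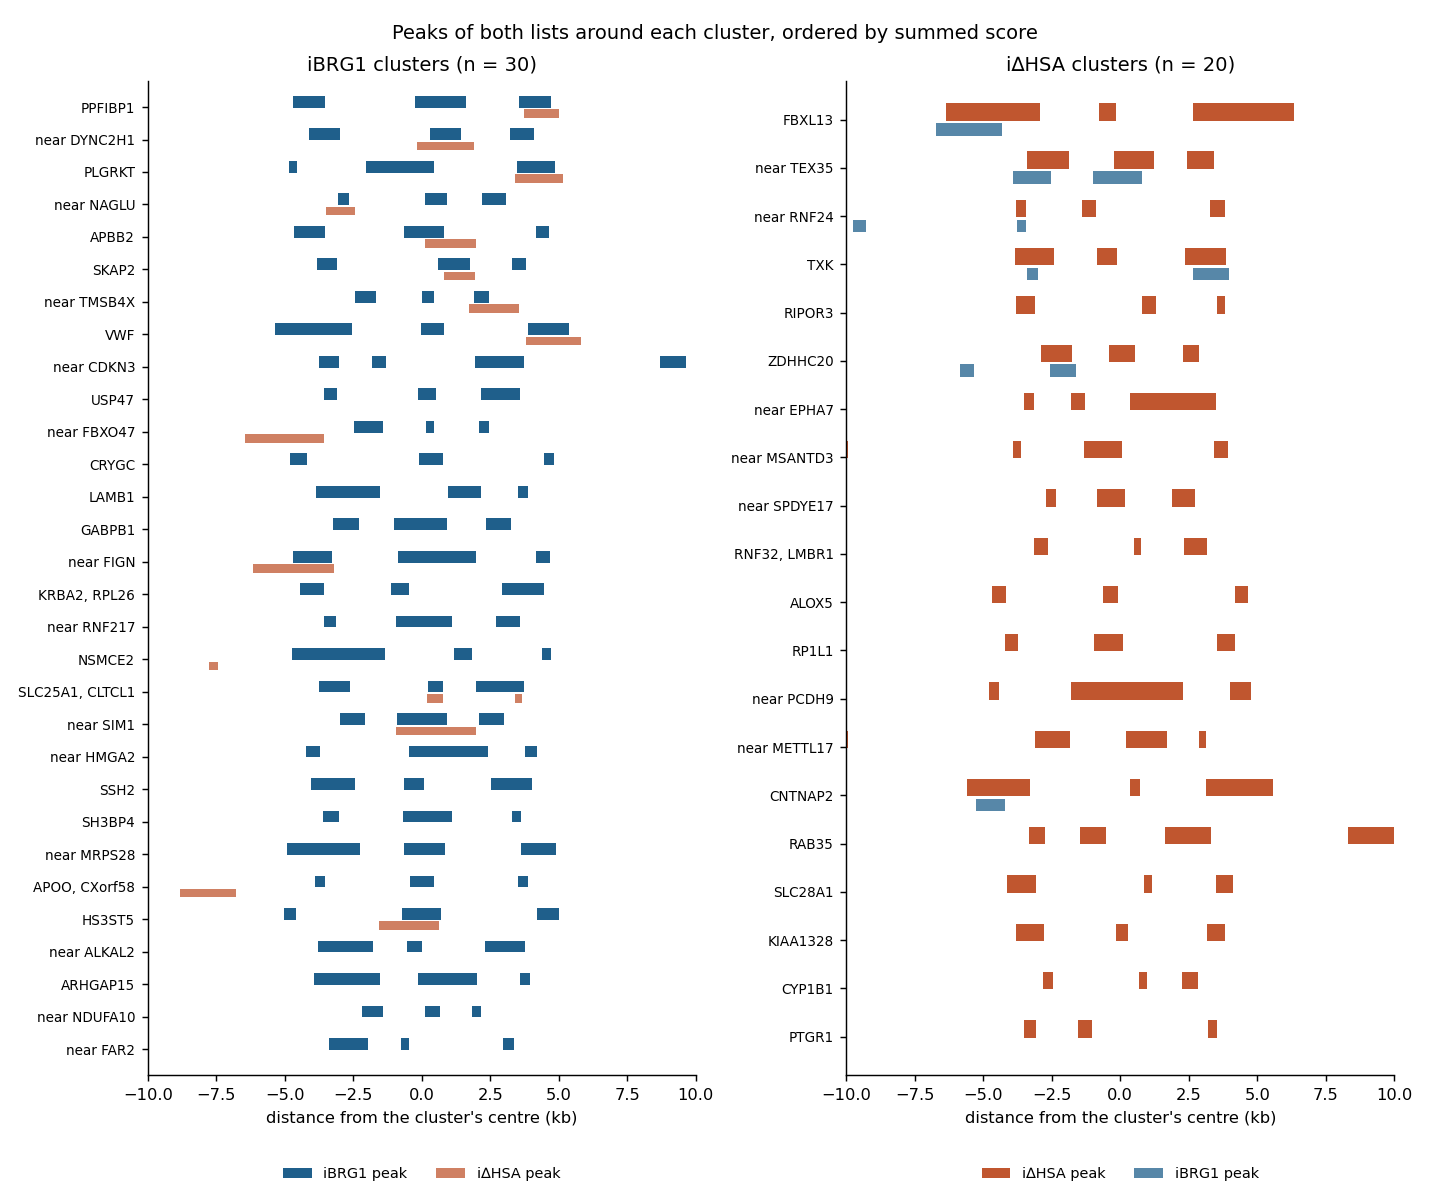
Peaks of the iBRG1 list (blue) and the i∆HSA list (orange) around the centre of each of the 30 iBRG1 clusters (left) and 20 i∆HSA clusters (right), in kb from the centre, with 1 row per cluster named by its protein-coding genes or the nearest one. Each row has 3 cluster peaks, and in no row does the other list have 3 peaks inside the span.

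Close neighbours were scarce against those a little farther off. Of all neighbouring peaks, 2.69% in the iBRG1 list and 2.77% in the i∆HSA list had midpoints within 5 kb, against 7.26% and 7.48% between 5 and 10 kb, and the shares fell steadily from there up to 50 kb. No midpoints were less than 1 kb apart, and the smallest gap between the edges of neighbouring peaks was 1158 bp in the iBRG1 list and 1065 bp in the i∆HSA list. Peaks that were closer may have been joined when the lists were made, which was not tested. Within clusters, the distance between neighbouring midpoints had a median of 3494 bp (range 1616 to 4959) for iBRG1 and 3458 bp (range 1713 to 4987) for i∆HSA. These distances chose the clusters and are given as a description only.

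**Figure D2:**
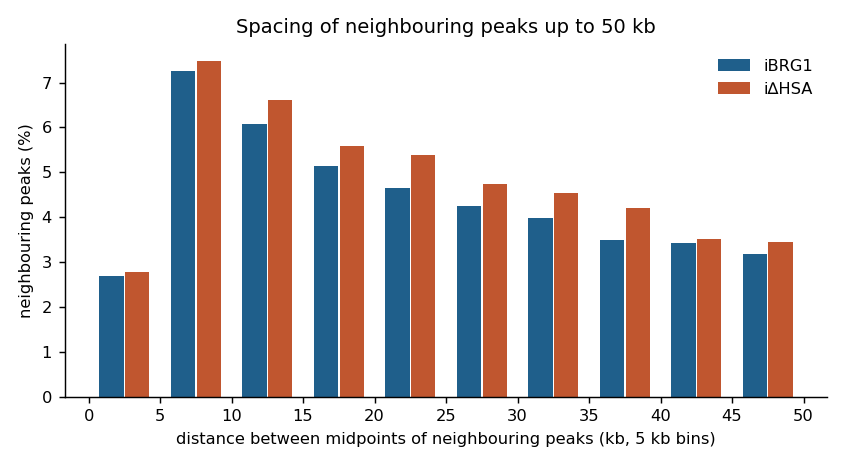
Percentage of neighbouring peaks by the distance between their midpoints, in 5 kb bins up to 50 kb, for the iBRG1 list (blue) and the i∆HSA list (orange). In both lists the lowest bin, up to 5 kb, stood well below the next one, with 2.69% against 7.26% for iBRG1 and 2.77% against 7.48% for i∆HSA.

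The peak names carried running numbers whose last values were 340229 and 286854, so the deposited peaks were 7.12% of the numbers in the iBRG1 list and 8.84% in the i∆HSA list. Of the links inside clusters, 56 of 60 in the iBRG1 list and 38 of 40 in the i∆HSA list joined consecutive numbers, and the others skipped 1 number. The same held of pairs, with 584 of 591 and 637 of 662 links consecutive, so it went with any link of up to 5 kb. Neighbours farther apart were a median of 9 and 8 numbers from each other.

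The limit of 5 kb did not fall in a natural break. At 4500 bp there were 22 iBRG1 and 12 i∆HSA clusters, and at 5500 bp there were 44 and 31. In each list 8 clusters had a link over 4500 bp and so lay just inside the limit. Their 24 peaks per list had a median width of 845 bp in iBRG1 and 528 bp in i∆HSA, a median score of 3 in both, and 5 and 3 of them overlapped the other list. Just outside, the 43 iBRG1 peaks of 14 chains and the 33 i∆HSA peaks of 11 chains that were gained at 5500 bp had median widths of 1262 and 1170 bp, median scores of 5 and 3, and 9 and 4 overlaps with the other list.

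Cluster peaks were narrow. Their median width was 881 bp (quartiles 518 to 1473) in the iBRG1 list and 627 bp (quartiles 467 to 1072) in the i∆HSA list, against 1323 and 1320 bp for the peaks outside clusters. Pairs lay between, at 980 and 871 bp. Peaks under 600 bp made up 32.2% of iBRG1 cluster peaks (29 of 90; 95% Wilson interval 23.5 to 42.4) and 46.7% of i∆HSA cluster peaks (28 of 60; 34.6 to 59.1), against 23.7% and 22.5% outside. Wilson intervals here cover counting error only and take peaks as independent, which neighbours are not. Width bears on the rule, since wide peaks cannot lie close together without meeting, and so the widths are given as a description.

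**Figure D3:**
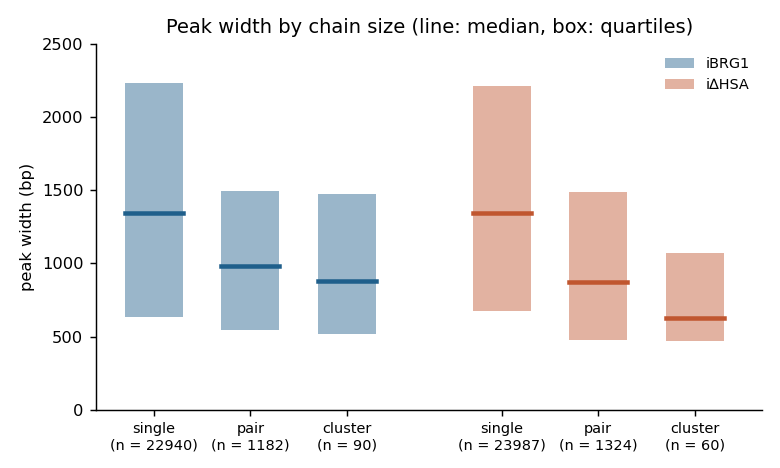
Peak width in bp by chain size for the iBRG1 list (blue) and the i∆HSA list (orange), with the median as a line and the quartiles as a box. Median width was lower in larger chains in each list, from 1346 to 980 to 881 bp in iBRG1 and from 1348 to 871 to 627 bp in i∆HSA.

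The deposited score is a whole number on a scale that is not stated, so scores are compared within a list only. In the iBRG1 list the median was 2 for cluster peaks (range 0 to 20) and 2 outside. In the i∆HSA list it was 3 (range 2 to 21) against 4 outside, and scores of at least 5 were held by 21.7% of cluster peaks (13 of 60; 13.1 to 33.6) against 41.2% outside. The matching iBRG1 shares were 23.3% (21 of 90; 15.8 to 33.1) and 27.2%. The study's methods name a minimum score of 5, which 6575 iBRG1 and 10440 i∆HSA peaks of the deposited lists reached. The paper reports fewer binding sites for each construct than these lists hold. All peaks were under that score in 15 of 30 iBRG1 clusters and 12 of 20 i∆HSA clusters. With such peaks left out, 2 iBRG1 clusters and 1 i∆HSA cluster remained. A peak that scored 10 or more was held by 6 of 30 iBRG1 and 2 of 20 i∆HSA clusters. The share of all peaks at that score was not computed, and the 2 counts are not compared.

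**Figure D4:**
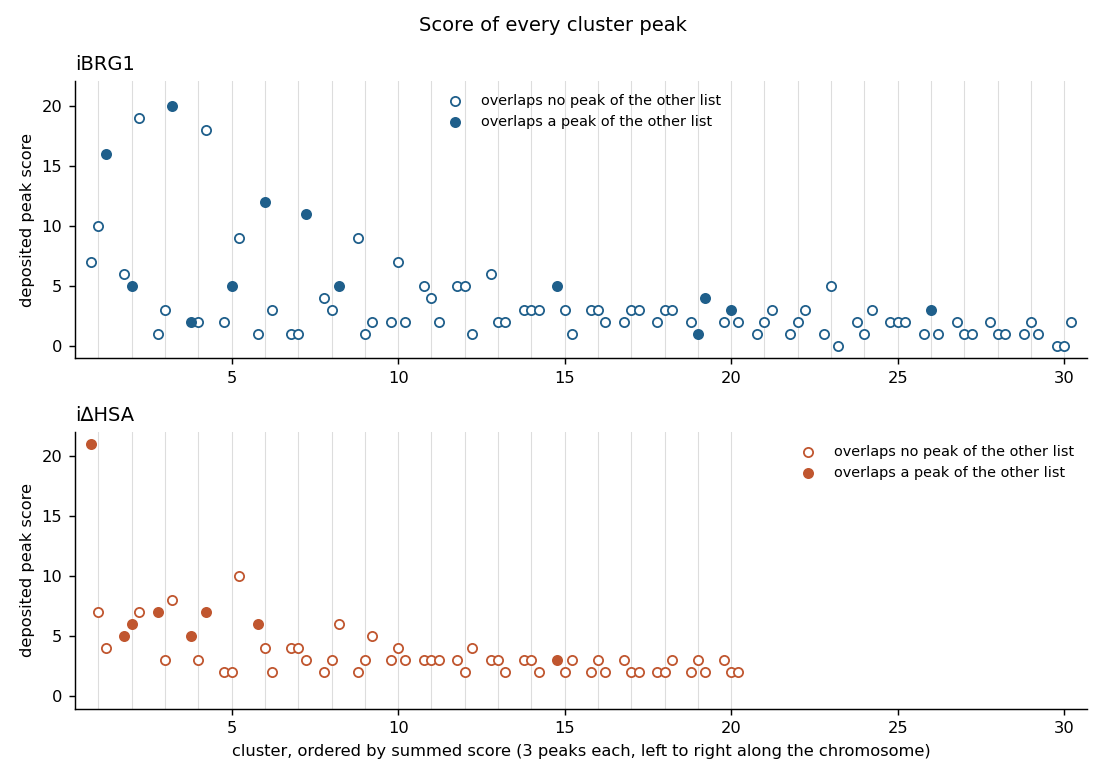
Deposited score of each of the 90 iBRG1 and 60 i∆HSA cluster peaks, by cluster in order of summed score, with filled points for peaks that overlap a peak of the other list. The highest scores were 20 in iBRG1 and 21 in i∆HSA, and no peak to the right of the tenth cluster scored above 6.

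By summed score, the leading iBRG1 cluster lay at chr12:27763374-27772802 inside PPFIBP1, which encodes liprin beta 1, a scaffold of cell adhesion sites. Its 3 peaks, all intronic, scored 7, 10 and 16, and the right peak overlapped an i∆HSA peak. The next lay at chr11:103395422-103403639, with no gene in its span and DYNC2H1, a motor of cilia, 44830 bp away. Its peaks scored 6, 5 and 19, and here the lowest of the 3, in the middle, was the shared one. The cluster at chr9:5432965-5442664 ran across the start of PLGRKT, a plasminogen receptor, with scores of 1, 3 and 20. The score of 20 belonged to the right peak, upstream of the gene, which was shared.

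The clusters ranked 4 to 7 by summed score each had 1 peak that scored above the others. At chr17:40682089-40688203, over the pseudogene PTP4A2P1 and 55 bp from NAGLU, a lysosomal enzyme gene, the scores were 2, 2 and 18. At chr4:41201845-41211142 in APBB2, an adaptor that binds the amyloid precursor protein, they were 2, 5 and 9. At chr7:26945074-26952710 in SKAP2, an adaptor of Src family kinases, they were 1, 12 and 3. At chrX:13002798-13007698, 7451 bp from TMSB4X, which encodes the actin-binding peptide thymosin beta 4, they were 1, 1 and 11. Each of these 4 clusters had 1 shared peak, which was the highest of the cluster in SKAP2 and near TMSB4X but not in the other two.

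The cluster at chr12:6192776-6203517 in VWF, the clotting factor of endothelium and platelets, scored 4, 3 and 5. It was the widest iBRG1 cluster, at 10742 bp, and its left and right peaks both held an AP-1 match. The last of the 10 were chr14:54649176-54656656, 206910 bp from CDKN3, with scores of 9, 1 and 2, and chr11:11871030-11878179 in USP47, a deubiquitinase, with scores of 2, 7 and 2. Neither held a shared peak.

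Among i∆HSA clusters, that in FBXL13, an F-box gene, at chr7:102514787-102527503 had the highest summed score and the widest span. Its peaks scored 21, 7 and 4, and the left one, with 2 AP-1 matches, overlapped an iBRG1 peak. A cluster at chr1:178577832-178584647, 60094 bp from TEX35 and over no gene, scored 5, 6 and 7, the most even of the higher ones, and its left and middle peaks were shared. Another, at chr20:4009394-4017038 and 13188 bp from RNF24, scored 7, 3 and 8, with its left peak shared. At chr4:48088913-48096614 in TXK, a Tec family kinase of T cells, the scores were 5, 3 and 7, and both outer peaks were shared.

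The i∆HSA cluster at chr20:49269468-49277080 in RIPOR3 scored 2, 2 and 10, with none of its peaks shared. That at chr13:21976517-21982285 in ZDHHC20, a palmitoyltransferase, scored 6, 4 and 2, and its left peak was shared. Those at chr6:93681525-93688536 (261201 bp from EPHA7), chr9:103166611-103174476 (14948 bp from MSANTD3), chr7:76524546-76529970 (over the gene ENSG00000285666) and chr7:156467430-156473764 (RNF32 and LMBR1) had no shared peak and no score above 6. LMBR1 is known for the limb enhancer of SHH in 1 of its introns, and whether the cluster meets that enhancer was not tested.

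No iBRG1 cluster overlapped an i∆HSA cluster, by so much as 1 bp. A count of 0 allows a share of up to 10% of the 30 iBRG1 clusters and 15% of the 20 i∆HSA clusters, for counting error only. The nearest clusters of the 2 lists, in LAMB1 and FBXL13 on chromosome 7, were 5079 kb apart. The count rests on the linking rule: with 10 kb between midpoints, 11 of 272 iBRG1 and 11 of 285 i∆HSA clusters overlapped (4.04% and 3.86%), and with 5 kb between peak edges, 4 of 98 and 4 of 71 did (4.08% and 5.63%). Of the iBRG1 clusters, 18 had no i∆HSA peak in the span, 11 had 1 and 1 had 2. Of the i∆HSA clusters, 14 had no iBRG1 peak in the span, 4 had 1 and 2 had 2.

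Only 3 clusters met a pair of the other list. The iBRG1 cluster at chr22:19159535-19167012, over SLC25A1, the mitochondrial citrate carrier, and CLTCL1, a clathrin heavy chain, scored 2, 1 and 4. It was the most GC-rich cluster of either list, at 63.9%. Its middle and right peaks overlapped i∆HSA peaks of score 2 and 2, which were a pair of their own. The i∆HSA cluster near TEX35 overlapped an iBRG1 pair of scores 17 and 8. The i∆HSA cluster in ZDHHC20 met 1 member of an iBRG1 pair, the other member lying outside its span. In TXK the 2 overlapping iBRG1 peaks were more than 5 kb apart and so not chained.

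Counted by peak, 13 of 90 iBRG1 cluster peaks overlapped the i∆HSA list (14.4%; 8.64 to 23.2), against 20.5% of all iBRG1 peaks. Of the i∆HSA cluster peaks, 8 of 60 overlapped the iBRG1 list (13.3%; 6.91 to 24.2), against 19.6% of all i∆HSA peaks. Both intervals held the share of the whole list. Pairs stood at 15.6% (13.6 to 17.7) and 14.0% (12.2 to 15.9), with intervals below the whole list. Windows of 1 kb on each midpoint, which take width out of the comparison, again gave 13 and 8 shared cluster peaks, or 14.4% and 13.3%, against 17.4% and 16.6% of all peaks.

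Shared cluster peaks scored higher and were wider than the rest. Their median score was 5 (quartiles 3 to 11) against 2 (1 to 3) for the other 77 iBRG1 cluster peaks, and 6 (5 to 7) against 3 (2 to 3) for the other 52 i∆HSA cluster peaks. Their median width was 1368 against 856 bp in the iBRG1 list and 1457 against 575 bp in the i∆HSA list. Wide peaks meet others more readily, and this was not particular to clusters. Outside clusters, 28.1% of iBRG1 peaks of at least 1000 bp were shared against 8.45% of narrower ones. The matching i∆HSA shares were 27.2% and 7.23%. Of the clusters with a shared peak, a shared peak alone was the highest in 9 of 12 in iBRG1 and 3 of 6 in i∆HSA. In i∆HSA 1 more, in CNTNAP2, tied with an unshared peak. Among cluster peaks of score at least 5, 8 of 21 iBRG1 peaks (38.1%; 20.8 to 59.1) and 7 of 13 i∆HSA peaks (53.8%; 29.1 to 76.8) were shared, against 42.1% and 35.0% of such peaks outside clusters. Among those under 5, it was 5 of 69 (7.25%; 3.13 to 15.9) and 1 of 47 (2.13%; 0.377 to 11.1), against 12.5% and 8.81%.

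In clusters with no shared peak, the nearest peak of the other list lay a median of 22930 bp away for the 18 iBRG1 clusters (range 1102 to 288398) and 37404 bp for the 14 i∆HSA clusters (range 6814 to 135622). The closest was near FBXO47, where an i∆HSA peak lay 1102 bp from an iBRG1 cluster with scores of 5, 4 and 2. Those more than 100 kb from the other list numbered 4 in iBRG1 and 2 in i∆HSA. The farthest iBRG1 clusters were near FAR2 (288398 bp), near RNF217 (266960 bp) and in ARHGAP15 (259362 bp), and the farthest i∆HSA clusters were near EPHA7 (135622 bp) and in RP1L1 (110751 bp). A peak of the other list lay within 50 kb of 76.7% of iBRG1 cluster peaks (66.9 to 84.2) and 80.0% of i∆HSA ones (68.2 to 88.2), against 70.9% and 71.5% of all peaks, so both intervals held the whole-list share.

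The iBRG1 clusters spanned 21 protein-coding genes, 0.104% of the 20176 annotated, and the i∆HSA clusters spanned 14, or 0.0694%. No gene was in both sets, and sets this small leave little room for a common gene. A protein-coding gene lay in the span of 17 of 30 iBRG1 and 13 of 20 i∆HSA clusters, and 10 clusters in each list sat wholly inside 1 such gene. The start of a coding transcript lay in 8 iBRG1 and 5 i∆HSA spans, while 8 and 6 spans held no annotated gene of any kind. The genes were long, with a median of 104 kb for iBRG1 and 88.7 kb for i∆HSA, against 27.2 kb for all coding genes and 70.9 and 60.6 kb for coding genes with at least 1 peak. Long genes offer more room for a chain, so the lengths are given without a test.

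Genes spanned by iBRG1 clusters, beside those already named, were of mixed function. LAMB1, the beta 1 chain of laminin in basement membranes, held an intronic cluster at chr7:107606845-107614599 with scores of 6, 2 and 2. It was the only 1 of 315 genes on 14 lists of SWI/SNF subunits, AP-1 and YAP-TEAD factors, matrix, adhesion, signalling, steroid and cell cycle genes to be spanned in the iBRG1 list, and none was in the i∆HSA list. Of all coding genes, 0.104% were spanned in the iBRG1 list and 0.0694% in the i∆HSA list. At those shares 315 genes leave little room for a spanned gene, so the counts say nothing about these gene groups. The gene body of LAMB1 held 6 iBRG1 peaks and 1 i∆HSA peak, cluster peaks included. SH3BP4, an endocytic adaptor, held 5 iBRG1 peaks and no i∆HSA peak, and ARHGAP15, a Rac GTPase activator, held 6 and 1. HS3ST5, SSH2 (a cofilin phosphatase) and NSMCE2 (a SUMO ligase) held 5, 11 and 12 iBRG1 peaks against 4, 10 and 6 of i∆HSA.

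Several iBRG1 clusters lay over gene starts. At chr17:8279639-8288529, over KRBA2, ENSG00000263809 and the ribosomal protein gene RPL26, all 3 peaks met annotated promoters and scored 3, 3 and 2. At chr15:50645168-50651667, over the start of GABPB1, a subunit of the ETS factor GABP, and of its antisense and intronic transcripts, all 3 met promoters and scored 3, 3 and 3. Such neighbours overlap in the annotation, so a peak there cannot be given to 1 gene. At chrX:23921934-23929702 the scores were 2, 2 and 2, and the middle peak covered the facing starts of APOO, a mitochondrial cristae protein, and CXorf58. At chr2:208990041-208999672 the scores were 5, 5 and 1. CRYGC, a lens crystallin, lay whole within the span of that chromosome 2 cluster, between peaks, and had no peak in its body.

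Genes of the i∆HSA clusters included several with no iBRG1 peak at all in the body. These were ALOX5, which makes leukotrienes, CYP1B1, a cytochrome P450, PTGR1, a prostaglandin reductase, the GTPase RAB35, RIPOR3, RNF32 and RP1L1, a photoreceptor protein, with 2 to 4 i∆HSA peaks each. In all, 7 of 14 genes of i∆HSA clusters (50.0%, interval 26.8 to 73.2) and 14 of 21 genes of iBRG1 clusters (66.7%, interval 45.4 to 82.8) had a peak of the other list in the body. Of all coding genes with a peak, 60.8% in the i∆HSA list and 66.4% in the iBRG1 list had one of the other list too, within those intervals. CNTNAP2, a neurexin family gene of 2305 kb, held 22 i∆HSA and 9 iBRG1 peaks. The ALOX5 cluster, at chr10:45894525-45903877 in introns, was the only i∆HSA cluster with equal scores, 3, 3 and 3.

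Promoters, taken as 1 kb on each side of any transcript start, were met by 21 of 90 iBRG1 cluster peaks (23.3%; 15.8 to 33.1), against 19.8% of all iBRG1 peaks. For i∆HSA it was 9 of 60 (15.0%; 8.10 to 26.1), against 21.7% of all its peaks. Both intervals held the whole-list share. With coding starts only, the shares were 14.4% for iBRG1 and 10.0% for i∆HSA cluster peaks, against 14.4% and 15.9% of all peaks, and by midpoint they were 14.4% and 11.7%, against 14.4% and 15.9%. Introns held 39 iBRG1 and 25 i∆HSA cluster peaks (43.3% and 41.7%), and distal intergenic sequence held 28 and 20 (31.1% and 33.3%), against 44.5% and 41.8% of all peaks in introns and 26.6% and 28.1% in distal intergenic sequence. GC content was alike, with medians of 38.9% for cluster peaks in both lists and 38.6% and 38.2% outside.

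The AP-1 pattern lay within 100 bp of the midpoint in 15 of 90 iBRG1 cluster peaks (16.7%; 10.4 to 25.7), against 8.9% of all iBRG1 peaks. In the i∆HSA list it was 4 of 60 (6.67%; 2.62 to 15.9), against 6.18% of all its peaks. The iBRG1 interval lay above the whole-list share and the i∆HSA interval held it. iBRG1 pairs stood between, at 10.7% (9.10 to 12.6). Within 250 bp of the midpoint, the iBRG1 share was 26.7% (18.6 to 36.6) against 19.6% of all peaks, an interval that held the whole-list share, and the i∆HSA share was 15.0% (8.10 to 26.1) against 13.9%. The difference between the lists was not tested.

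The iBRG1 matches were spread over 13 of the 30 clusters, with 2 in VWF and 2 over RNF217-AS1, and the i∆HSA matches over 4 of 20. Of the 15 iBRG1 peaks with a match, 3 were shared and 3 were at promoters, and 11 scored under 5. Among iBRG1 cluster peaks under that score the share was 15.9% (11 of 69; 9.14 to 26.3), against 7.17% of all iBRG1 peaks under it. Among those of at least 5 it was 19.0% (4 of 21; 7.67 to 40.0), against 13.5%. The i∆HSA peaks with a match lay in FBXL13, CNTNAP2, CYP1B1 and the cluster near TEX35, and only that in FBXL13 was shared.

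The other patterns were searched in the same way, on both strands. The RUNX pattern tgtggtt was in 6 of 60 i∆HSA cluster peaks (10.0%; 4.66 to 20.1), against 3.27% of all i∆HSA peaks, and in 6 of 90 iBRG1 cluster peaks (6.67%; 3.09 to 13.8), against 3.77%. The TEAD pattern ggaatg was in 12 iBRG1 (13.3%; 7.79 to 21.9) and 5 i∆HSA cluster peaks (8.33%; 3.61 to 18.1), against 12.2% and 10.2% of all peaks. The SP/KLF pattern gggcgg was in 7 iBRG1 (7.78%, interval 3.82 to 15.2) and 1 i∆HSA cluster peak (1.67%, interval 0.295 to 8.86), against 4.65% and 5.49% of all peaks. The NR5A1 pattern aaggtca was in 4 and 2, the E-box cacgtg in 3 and 0, the ETS pattern ccggaag in 2 and 0, and the NFY pattern ccaatca in 1 and 1. The whole-list shares of these were 3.54% and 2.95%, 1.96% and 2.32%, 0.743% and 0.930%, and 1.88% and 2.40%, each within the interval of the cluster peaks. With 8 patterns in 2 lists, 2 of 16 intervals lay above the whole-list share, those of AP-1 in iBRG1 and RUNX in i∆HSA. A match is a run of letters and not a bound site.

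**Figure D5:**
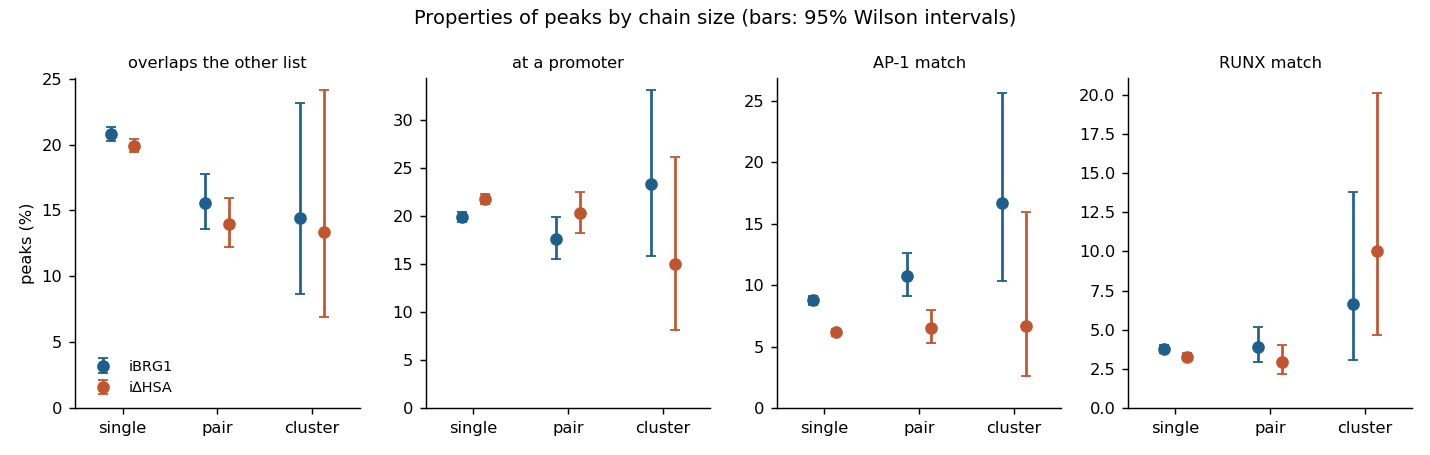
Percentage of peaks that overlap the other list, meet a promoter, or hold an AP-1 or RUNX match, for single peaks, pairs and clusters of the iBRG1 (blue) and i∆HSA (orange) lists, with 95% Wilson intervals. The interval of cluster peaks lay above the single peaks for AP-1 in iBRG1 (16.7% against 8.78%) and for RUNX in i∆HSA (10.0% against 3.27%), and the other cluster intervals held the value of single peaks.

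Clusters were on 13 chromosomes in the iBRG1 list and 14 in the i∆HSA list. Chromosome 2 had 6 iBRG1 clusters and 1 i∆HSA cluster, chromosomes 12 and 17 had 4 iBRG1 clusters each against 1 and 0, and chromosome 7 had 4 i∆HSA clusters against 2. Chromosomes 3, 5, 16, 19, 21 and Y had none. Chromosome 2 also had the most iBRG1 peaks, 2449. Per 1000 iBRG1 peaks of the chromosome there were 7.35 cluster peaks on chromosome 2, 9.21 on 12 and 15.0 on 17. Chromosome 22, with 1 iBRG1 cluster, had 16.2. For i∆HSA there were 7.39 on chromosome 7, against 9.57 on 13 and 9.98 on 20, which had 2 clusters each. Over the whole lists, cluster peaks were 0.372% of iBRG1 and 0.236% of i∆HSA peaks. Within 500 kb, a measure of the other list that the rule did not use, iBRG1 cluster peaks had a median of 14 i∆HSA peaks (quartiles 7 to 18) against 11 (7 to 16) for iBRG1 peaks outside clusters. For i∆HSA cluster peaks it was 10.5 iBRG1 peaks (7.75 to 14) against 11 (7 to 15). Own-list counts, which leave out the peak's own chain, had medians of 12 and 13.5 against 11 and 12. The i∆HSA cluster across the start of SLC28A1, a nucleoside transporter gene, with 2 of its 3 peaks upstream, was the only one within 500 kb of an assembly gap.

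None of the genes SRPX2, MYOF, CRYAB, CSF1, SPARC and SMARCA4 held a cluster. MYOF, a membrane repair protein of the ferlin family, came nearest, with 6 iBRG1 and 5 i∆HSA peaks in or within 5 kb of the gene and a longest chain of 2 in each list. SMARCA4 had 4 peaks in each list and none chained.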

How the data were processed

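CUT&RUN was performed on 4 samples, 2 per construct. The authors' methods list trimming with Cutadapt, alignment with Bowtie2, duplicate removal with Picard, peak calling with MACS2, and filters against negative controls and by score. The deposited files give each peak's start, end and score, a whole number chosen by the authors on a scale that is not stated. Whether replicates were pooled is not given in the sources used here. The submitters' processing notes name hg19 and MACS2 2.2, and 0 peaks ended past a GRCh37 chromosome.

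Groups came from the sample titles. Midpoints up to 5000 bp apart were chained and chains of at least 3 peaks were kept. Peaks were called shared at 1 bp of overlap. Genes came from GENCODE release 44 mapped to GRCh37, and a peak was given 1 feature, with promoters first, then UTRs, other exons, introns, the 300 bp downstream of a gene and distal intergenic sequence. The 8 motifs were exact letters within 100 bp of the midpoint. Intervals are 95% Wilson intervals, and the limit of a count of 0 is 3 counts. No test was run, since the clusters were chosen on the same positions and there is 1 list per construct. Named clusters were the 10 of each list with the most peaks, ties going to the higher summed score, the 5 of each list that led in the same order among clusters with no peak of the other list in the span, those over listed genes, and 6 genes of the study. A rule to print sequences of overlapping clusters was void, as there were none, and another choice took its place after the values were seen, as did the clusters named for an extreme distance, gene start or count. Clusters and gene lists were chosen with earlier results of these data known. The sequence at 1 cluster is not reported here. The chaining was tested on simulated data. Python 3.11.15, numpy 2.4.6, pandas 2.3.3, scipy 1.17.1, pysam 0.24.0 and matplotlib 3.10.9 were used.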

Additional observations from a re-analysis of the deposited data

How the results depend on the processing

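No paired analysis was possible because the deposited peaks carry no replicate number, and for the same reason no replicate could be left out. Of 96 values under 12 alternative settings, 47 stayed within 1.5 times the reported count or inside its 95% interval and 49 moved. In this paragraph values are given for iBRG1 and then i∆HSA. The number of clusters follows the linking distance. With 2.5 kb there were 3 and 0 clusters, 9 and 0 cluster peaks (0.0372% and 0% of peaks) and 0 and 0 coding genes, and 11.1% of the iBRG1 cluster peaks were at promoters. With 10 kb there were 272 and 285 clusters, 868 and 908 cluster peaks (3.59% and 3.58%), 218 and 235 coding genes, and 11 genes in both lists. With at least 4 peaks there were 0 and 0 clusters, cluster peaks, percent of peaks and genes. With scores of at least 5 there were 2 and 1 clusters, 6 and 3 cluster peaks (0.0913% and 0.0287%) and 1 and 0 genes. Of these, 33.3% and 66.7% were shared, 0% and 0% were at promoters and 0% and 33.3% held AP-1, on so few peaks that the shares carry little. Linking by 5 kb between edges, added after seeing the data, gave 98 and 71 clusters and 302 and 216 cluster peaks (1.25% and 0.851%). The iBRG1 promoter share was 14.4% with coding starts only and 14.4% by midpoint, the latter added after seeing the data. The iBRG1 AP-1 share was 26.7% within 250 bp. The count of 0 overlapping clusters rests on the linking rule, since both settings that gave more clusters gave overlaps: 11 of each list with 10 kb between midpoints (4.04% and 3.86%) and 4 of each with 5 kb between edges (4.08% and 5.63%). The other settings could hardly raise it, as they asked for more overlap or left the same or fewer clusters. Depth is unknown, so peaks missed in either list cannot be told from absent binding.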

Other observations

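At 10 kb between midpoints, an alternative setting, 11 chains of 3 or more peaks in each list overlapped a chain of the other list. In each list the highest summed scores among them lay at the same loci, MYOF, KANSL1, VMP1 and near DCBLD2. MYOF had 160 over 3 i∆HSA peaks at chr10:95218293-95231252 and 50 over 4 iBRG1 peaks at chr10:95218310-95236429. KANSL1, a subunit of a histone acetyltransferase complex, had 140 for i∆HSA and 86 for iBRG1, over 3 peaks each. VMP1, an autophagy gene, had 112 for i∆HSA and 62 for iBRG1. Near DCBLD2 at chr3:98681029-98697447 the iBRG1 chain summed to 124 and the i∆HSA chain to 95. The scale of the score is not stated, so these sums are not compared between the lists. In KANSL1, VMP1, near DCBLD2 and near CDC42BPA, all 3 peaks of each chain were shared. In ARHGAP17, 4 i∆HSA peaks were all shared and so were 3 iBRG1 peaks. None of these loci held a cluster at 5 kb.

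The largest chains at 10 kb had 6 peaks. In the iBRG1 list this was 1 chain in DOCK5, a guanine nucleotide exchange factor for Rac, with a summed score of 46. In the i∆HSA list there were 2, over UBR2 and PRPH2 (summed score 71) and near SMIM19 (25). Chains of 5 peaks numbered 7 in iBRG1, among them SPIRE1 with PSMG2 (59) and NR6A1 (26), and 5 in i∆HSA, among them DLGAP1 (77) and FLT3 with URAD (63).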
